A study of Mus musculus with 12 samples.

Results

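The longest genes of the mouse genome are mostly genes of neurons, and 44 of them, all on autosomes, were examined for called nucleosomes in male germ cells. The members are protein-coding genes of 703246 to 2270506 bp (median 1164390 bp) on 17 of the 19 autosomes, picked by symbol as very long, mainly neuronal genes with many calls per gene. A call belonged to a member when its midpoint lay in the RefSeq gene body on GRCm38/mm10. Together the members cover 57.3 Mb, 2.39% of the autosomal sequence used, and they held 9332 of the 356553 autosomal calls that lay outside dense bins (bins of 10 kb where any list had over 20 calls). All 44 symbols were found, each member had calls in every list, and no dense bin touched a member. Of the 55 autosomal protein-coding genes of at least 1 Mb, 36 are members, and 8 members are shorter. Because the number of calls was part of the choice, call totals are given as description.

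The calls came from MNase-seq of testis cells of male SV129 mice aged 8 to 12 weeks. Micrococcal nuclease cuts the linker between nucleosomes, so that protected fragments mark DNA held by histones. A fraction titled meiotic spermatid (M) and a round spermatid fraction (RS) were separated by sedimentation from pools of 11 animals, to a purity of at least 85%, and each was treated with 0.5, 1 or 2 U of MNase for 7.5 min at 37 °C. RS digests held 2 times as many cells, and every group shared strain, sex, age and tissue. The labels name no genetic change. Each of the 6 groups had 2 samples, which the authors pooled into 1 list of 140 bp calls. A list is thus the only value of its group, no difference could be tested against replicates, and a sign flip over 3 amounts could not give a two-sided p below 0.25. Intervals are 95% intervals for counting error alone. The lists held between 27101 and 179133 calls, the reads behind them are unknown, and the identity of the fractions could not be checked, since the lists hold no expression values.

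Genes of this length owe it to introns, which make up nearly all of the sequence. In neurons they encode adhesion molecules, receptors and scaffolds of axons and synapses. They usually lie in gene-poor, late-replicating chromatin, and several of them, Fhit and Wwox among them, sit at common fragile sites, where chromosomes break under replication stress. Not every member is chiefly neuronal. Fhit, Wwox, Macrod2, Immp2l, Exoc4 and Prkg1 are active in many tissues, and Sgcz encodes a sarcoglycan of the muscle membrane.

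Called nucleosomes in these genes were about as frequent as on the autosomes as a whole, and their share was smaller in lists made with more MNase. Relative density is the calls per Mb of the members over the autosomal calls per Mb of the same list, both outside dense bins. In M it was 1.29 at 0.5 U (1.21 to 1.37), 1.04 at 1 U (0.983 to 1.10) and 0.972 at 2 U (0.919 to 1.03). In RS it was 1.17 (1.13 to 1.20), 0.962 (0.895 to 1.03) and 0.909 (0.826 to 0.998). Both stages therefore had their highest value at 0.5 U, where the members stood above the autosomal mean, and their lowest at 2 U. The counts behind these values were 1044, 1240 and 1276 calls in M against 4566, 765 and 441 in RS, or 18.2, 21.6 and 22.3 calls per Mb in M and 79.7, 13.3 and 7.69 in RS. The lists differ in their totals, so calls of a gene are compared between lists only as relative density. Triplets of values below are in the order 0.5, 1 and 2 U.

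The log2 ratio of relative density at 2 U over 0.5 U was -0.41 (-0.53 to -0.29) in M and -0.36 (-0.50 to -0.22) in RS. Most of this difference lay between 0.5 and 1 U, with -0.31 in M and -0.28 in RS, while the step from 1 to 2 U gave -0.10 (-0.21 to 0.02) and -0.08 (-0.25 to 0.09). Of the 44 members, 28 (63.6%) were lower at 2 U than 0.5 U whichever the stage, against 31.7% of the 533 autosomal genes of at least 300 kb, members included. Among the 73 other genes at least as long as the shortest member it was 31, a share between those of the members and of the 533. The members were picked for many calls, and RS at 0.5 U supplies 4566 of their 9332 calls. That choice can favour genes high at 0.5 U in RS, so the members' share is given as description. Another 6 members were higher at 2 U in M and RS alike, as were 112 of the 489 other genes of at least 300 kb. Both counts use per-gene ratios, with 0.5 added to observed and expected calls. Among the 6, Gpc6 had a ratio just above 0 in RS (0.02), while its relative density there was 0.680 at 0.5 U and 0.672 at 2 U. The autosomal mean itself depends on the dense bins. With them kept, every relative density was lower (1.11, 0.913 and 0.857 in M, and in RS 1.09, 0.817 and 0.742), so that the M value at 1 U lay below 1 and not above it.

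The order of the amounts went with gene length. Other genes of 30 to 100 kb had relative densities of 0.479, 0.612 and 0.709 in M against 0.739, 0.836 and 0.955 in RS, and thus stood higher with more MNase, the opposite order to that of the members. The log2 ratio of 2 U over 0.5 U went down step by step with length in both stages. In M it was 0.91 for genes under 10 kb, 0.78 for 10 to 30 kb, 0.56 for 30 to 100 kb, 0.43 for 100 to 300 kb, 0.16 for 300 to 500 kb and -0.10 for the 172 other genes of 500 kb and over. In RS the same classes gave 0.57, 0.41, 0.37, 0.11, 0.02 and -0.31. The 19 non-members of at least 1 Mb gave -0.41 in M and -0.74 in RS, close to or beyond the members' values.

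**Figure D1:**
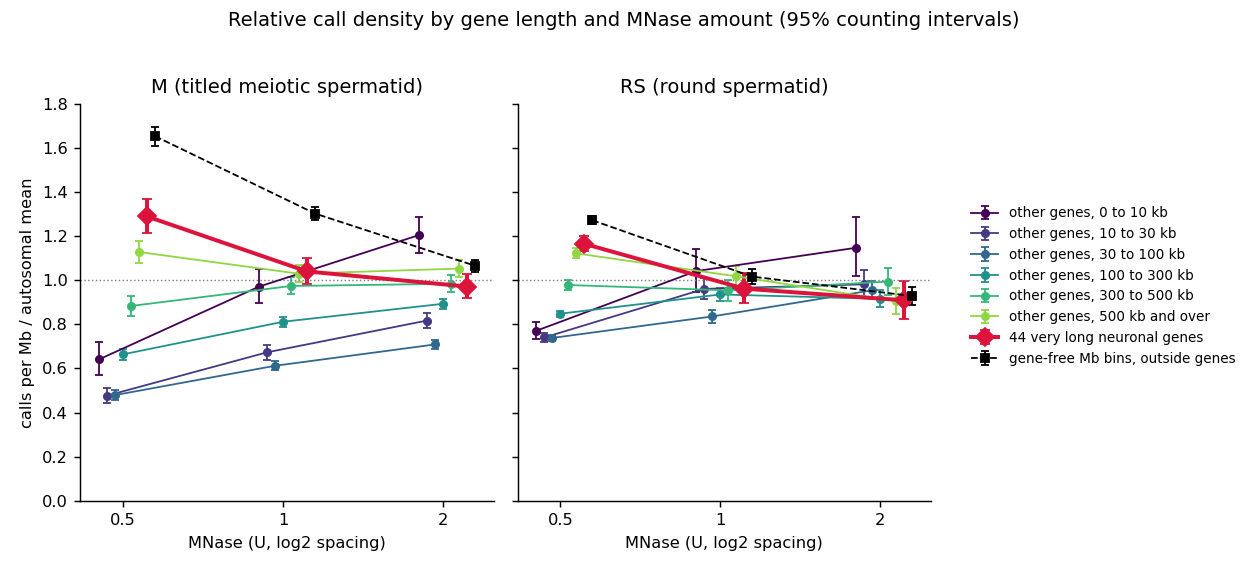
Relative call density (calls per Mb over the autosomal mean of the list) against MNase amount, M on the left and RS on the right. Lines are classes of other protein-coding genes by length, the 44 very long neuronal genes (red diamonds) and sequence outside genes in gene-free 1 Mb bins (black squares), with 95% counting intervals; the members go from 1.29 to 0.972 in M and from 1.17 to 0.909 in RS while the short classes go up.

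Against other genes of at least 300 kb the members were denser at 0.5 U alone, and at that amount non-members of at least 1 Mb had much the same values. The ratio of members to the 489 others was 1.28 (1.19 to 1.37), 1.04 (0.975 to 1.10) and 0.953 (0.897 to 1.01) in M, and 1.11 (1.07 to 1.14), 0.975 (0.900 to 1.06) and 0.958 (0.862 to 1.06) in RS. The members are longer than these others, whose median length is 429014 bp. Against genes of at least 500 kb the ratios at 0.5 U were 1.14 (1.06 to 1.23) in M and 1.04 (1.002 to 1.08) in RS. In M at 2 U that ratio was 0.923 (0.864 to 0.985), and in the other lists its interval included 1. The 19 non-members of at least 1 Mb had relative densities at 0.5 U of 1.26 (1.14 to 1.39) in M and 1.21 (1.15 to 1.26) in RS, with intervals that overlap those of the members. As the members were picked for many calls, these ratios were not tested.

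The surroundings of the genes gave nearly the same densities as their bodies. Within 1 Mb on either side the members had a median of 1.96 other protein-coding genes per Mb, body included, against 8.61 per Mb over the autosomes, and 42 of 44 lay below that mean. The member itself is not counted while its length is, so these rates are low in part by construction. The median number of neighbours was 6.5. Csmd3 and Pcdh9 had no neighbour at all, while Cdh13, with 28, and Grid1, with 24, lay among many genes. Flanking sequence outside genes had relative densities of 1.30, 1.15 and 1.09 in M, and in RS 1.17, 1.04 and 0.988. Bodies over flanks came to 0.993 (0.912 to 1.08) in M and 0.998 (0.958 to 1.04) in RS at 0.5 U, which is no difference detectable at these counts. At 1 and 2 U bodies were lower in M, with 0.904 (0.837 to 0.975) and 0.892 (0.827 to 0.961), and intervals included 1 in RS, with 0.926 (0.840 to 1.02) and 0.920 (0.809 to 1.05). The M value at 1 U was 1.00 for flanks of 500 kb, so that difference depends on the width of the flank. Gene by gene, with the lists summed, 19 of 44 bodies were denser than their own flanks. The ratio had a median of 0.959 and ran from 0.465 in Immp2l, 0.579 in Nrxn3 and 0.615 in Wwox to 1.33 in Nrg1 and 1.48 in Dcc.

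Member bodies were less dense than intergenic sequence of equally gene-poor places in M. Of 282 autosomal 1 Mb bins in which no protein-coding gene begins, 29 overlapped a member. The 22.8 Mb of member body in them had relative densities of 1.41 (1.28 to 1.54), 1.11 (1.02 to 1.21) and 0.999 (0.915 to 1.09) in M, against 1.65 (1.61 to 1.70), 1.30 (1.27 to 1.34) and 1.07 (1.04 to 1.09) for sequence outside genes in these 282 bins. In RS the body values were 1.17 (1.12 to 1.23), 1.02 (0.916 to 1.14) and 0.943 (0.811 to 1.09), against 1.27 (1.26 to 1.29), 1.02 (0.983 to 1.05) and 0.929 (0.888 to 0.971). The gap was thus seen at 0.5 and 1 U in M and at 0.5 U in RS, and was within the counting intervals in the other lists.

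The stages differed little in these genes. RS over M, as a log2 ratio of relative density, was -0.15 (-0.24 to -0.05) at 0.5 U, -0.11 (-0.24 to 0.02) at 1 U and -0.10 (-0.26 to 0.06) at 2 U, with a mean of -0.12 (-0.19 to -0.04). Without the weakest calls, those at the largest p-value of a list, the mean was -0.13 (-0.30 to 0.03), an interval that includes 0. With all calls, the relative density of RS was lower at 3 of 3 amounts. Taken relative to the other genes of at least 300 kb, the ratio at 2 U was 0.01, so that order held at 0.5 and 1 U and not at 2 U. With dense bins kept the ratio at 0.5 U was -0.03 (-0.13 to 0.07), so the difference at that amount rests on leaving them out. At 1 and 2 U it was then further from 0 than without them, with -0.16 (-0.29 to -0.03) and -0.21 (-0.37 to -0.05). Matched by MNase per cell, the stages lay further apart, with -0.42 (-0.56 to -0.29) when RS at 1 U was set against M at 0.5 U, and -0.19 (-0.35 to -0.04) when RS at 2 U was set against M at 1 U. The other genes of at least 300 kb had a mean of -0.02 (-0.06 to 0.01), and genes under 100 kb had 0.45 (0.42 to 0.49). The 19 non-members of at least 1 Mb had -0.07, -0.03 and -0.40 at the 3 amounts. The other genes of at least 300 kb had 0.06, -0.02 and -0.10. Genes of like length were thus nearer to the members at 0.5 U, about as near at 1 U, and further from them at 2 U.

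Single members went both ways. Of the 44, 9 (20.5%) had the higher relative density in M at 3 of 3 amounts, against 14.8% of all genes of at least 300 kb and 1.74% of all autosomal protein-coding genes, many of which have no call. In RS 4 members (9.09%) had the higher one at 3 of 3, against 15.0% and 2.84%. Of the 73 other genes at least as long as the shortest member, 14 were higher in M and 6 in RS at 3 of 3. Those shares are close to the members' own. The 9 were Lsamp, Csmd1, Csmd3, Astn2, Tenm2, Nrg3, Gpc6, Fgf14 and Prkg1, and the 4 were Magi2, Kcnip4, Cdh13 and Auts2. Per-gene ratios add 0.5 to observed and expected calls. Their median over the members was -0.17, beside 0.03 over the other genes of at least 300 kb and -0.14 over the 73 of these that are at least as long as the shortest member. The members ran from -0.80 to 1.05 and those other genes from -2.04 to 3.18. Calls varied over the members by more than counting error, with a variance over that of a Poisson count of 3.31, 2.52 and 2.65 in M against 4.67, 1.72 and 2.11 in RS, so the intervals of sums are narrow for a statement on such genes in general.

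**Figure D2:**
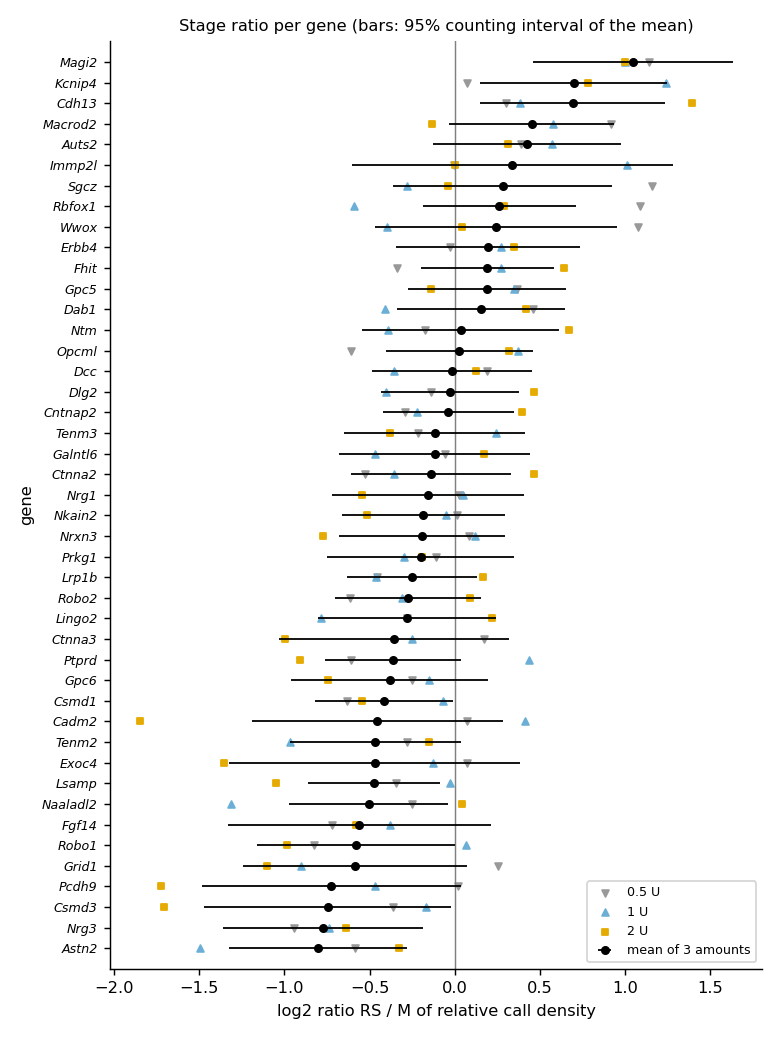
Log2 ratio of RS to M of relative call density for each of the 44 genes, sorted by the mean of 3 amounts (black, with its 95% counting interval); triangles and squares give the single amounts. Magi2 stands at the top with 1.05 and Astn2 at the bottom with -0.80.

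Surface adhesion molecules, which join axons and synapses to their partners, included the member with most calls. Lsamp, a GPI-anchored immunoglobulin protein of limbic neurons (chromosome 16, 39984254 to 42181679), had 48, 61 and 63 calls in M, and in RS 182, 40 and 11, 405 in all. Only Zfp978, with 409, had more outside dense bins among autosomal protein-coding genes, and 27 of the 44 genes with most calls were members. These ranks follow in part from the choice of the members, which were picked for length and many calls. Relative density of Lsamp was 1.55, 1.33 and 1.25 in M against 1.21, 1.31 and 0.592 in RS, each RS value lying below the M value of the same amount. Cntnap2, a neurexin-like protein that clusters potassium channels along axons (chromosome 6, 45060061 to 47301393), had 48, 49 and 35 calls in M against 189, 28 and 17 in RS. Its relative density in M went from 1.52 at 0.5 U to 0.682 at 2 U, and its stage ratio of -0.04 (-0.42 to 0.35) showed no direction.

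Opcml, an immunoglobulin protein of the same family as Lsamp (chromosome 9, 27790716 to 28925410), was the one member above the autosomal mean in 6 of 6 lists, as were 3.56% of genes of at least 300 kb. It had 31, 31 and 30 calls in M against 97, 27 and 14 in RS, and relative densities of 1.93, 1.31 and 1.15 (M) and 1.25, 1.72 and 1.46 (RS). Ntm, its neighbour and relative, had 14, 18 and 20 calls in M, and in RS 60, 9 and 12, and lay above the mean in 2 lists. Cdh13, a cadherin held by a lipid anchor (chromosome 8, 118140017 to 119324929), had 14, 16 and 16 calls in M against 84, 14 and 16 in RS. At 2 U its relative density was 0.589 in M and 1.60 in RS, and its mean stage ratio was 0.69 (0.15 to 1.24). Pcdh9, a protocadherin, went the other way at -0.73 (-1.49 to 0.03), with 19, 21 and 21 calls in M, and in RS 92, 10 and 2. Nrxn3, a presynaptic neurexin, had 26, 29 and 38 calls in M against 133, 21 and 8 in RS. Cadm2, a synaptic cell adhesion molecule, had 20, 19 and 23 calls in M, and in RS 101, 17 and 2, while its ratio of -0.45 (-1.19 to 0.28) changed sign between 1 and 2 U. As a group the 8 adhesion genes had relative densities of 1.39, 1.05 and 0.960 in M against 1.23, 1.07 and 0.866 in RS.

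The 8 large receptor-like membrane proteins had the highest density of any role at 0.5 U in M. Their values were 1.61, 1.20 and 1.04 in M, and in RS 1.16, 0.980 and 0.798. Their mean stage ratio was -0.38 (-0.55 to -0.22), and gene by gene it was negative for 8 of 8. It was negative for 29 of all 44 members and 49.7% of genes of at least 300 kb. Of the 73 other genes at least as long as the shortest member it was negative for 48. In this role 4 genes were lower in RS at 3 of 3 amounts, beside 9 of all 44 members and 14 of those 73. Roles were assigned with earlier results of these data known, and the group was not tested. Ptprd, a receptor phosphatase that organises synapses (chromosome 4, 75941237 to 78211742), is the longest member and had 54, 42 and 57 calls in M against 170, 38 and 11 in RS. Its ratio was -0.61 and -0.91 at 0.5 and 2 U but 0.43 at 1 U. Lrp1b, a lipoprotein receptor relative (chromosome 2, 40595290 to 42653598), had 48, 54 and 41 calls in M, and in RS 168, 26 and 17, with a mean ratio of -0.25 (-0.63 to 0.13).

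Csmd1 and Csmd3 encode giant membrane proteins with complement control repeats. Csmd1 (chromosome 8, 15892538 to 17535385) had 42, 58 and 44 calls in M against 130, 37 and 11 in RS, and relative densities of 1.81, 1.70 and 1.17 in M, and in RS 1.16, 1.62 and 0.791. Csmd3 (chromosome 15, 47580638 to 48792558) had 26, 27 and 21 calls in M against 97, 16 and 2 in RS. Its ratio of -0.75 (-1.47 to -0.02) leaned on the 2 calls at 2 U, where it was -1.71, while 0.5 and 1 U gave -0.36 and -0.17. Astn2, which takes part in the migration of neurons along glia (chromosome 4, 65380803 to 66404537), had the lowest stage ratio of all members, -0.80 (-1.33 to -0.28). It had 36, 35 and 34 calls in M against 114, 8 and 10 in RS. Its relative density in M at 0.5 U, 2.49, was the highest of any member in any list, and in RS at 1 U it was 0.563. Tenm2 and Tenm3 encode teneurins, which bind partners across the synapse. Tenm2 had 25, 30 and 36 calls in M against 99, 10 and 12 in RS, and its relative density was lower in RS at each amount. Tenm3 had 18, 19 and 32 calls in M, and in RS 75, 15 and 9, with a ratio near 0 of -0.12 (-0.65 to 0.41). Lingo2, a leucine-rich repeat protein, had 24, 34 and 21 calls in M against 95, 13 and 9 in RS.

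Guidance and growth factor genes were close behind, where 8 genes gave 1.51, 1.14 and 1.12 in M against 1.26, 0.931 and 0.963 in RS. Dcc, the netrin receptor of growing axons (chromosome 18, 71253613 to 72351228), had 26, 29 and 32 calls in M against 142, 15 and 13 in RS. Its 1.89 was the highest relative density of a member in RS at 0.5 U, and its stage ratio was near 0 at -0.02 (-0.49 to 0.45). Robo2, a receptor for the repellent Slit proteins (chromosome 16, 73891976 to 75447443), had 38, 41 and 33 calls in M, and in RS 119, 22 and 13. Nrg3, a neuregulin that acts on ErbB receptors (chromosome 14, 38365102 to 39473235), had the lower relative density in RS at each amount, with 29, 23 and 26 calls in M against 72, 9 and 6 in RS and a mean ratio of -0.77 (-1.36 to -0.19). Grid1, a delta-type glutamate receptor (chromosome 14, 34820003 to 35583387), had 10, 23 and 30 calls in M, and in RS 58, 8 and 5, while its ratio was 0.25 at 0.5 U and -1.10 at 2 U. Robo1, the partner gene of Robo2, had 29, 20 and 28 calls in M against 78, 14 and 5 in RS. Its 2.01 in M at 0.5 U was exceeded only by that of Astn2 among the members in that list, and its ratio was -0.58 with an interval that ended at 0. Erbb4, a receptor of neuregulins, had 23, 21 and 17 calls in M, and in RS 108, 17 and 8, while its ligand gene Nrg1 had 20, 16 and 32 in M against 98, 11 and 8 in RS. Neither showed a direction, with ratios of 0.20 (-0.35 to 0.74) and -0.16 (-0.72 to 0.40). Dab1, the adaptor of reelin signalling, had 13, 36 and 28 calls in M, and in RS 87, 18 and 14, and was higher at 2 U in both stages.

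**Figure D3:**
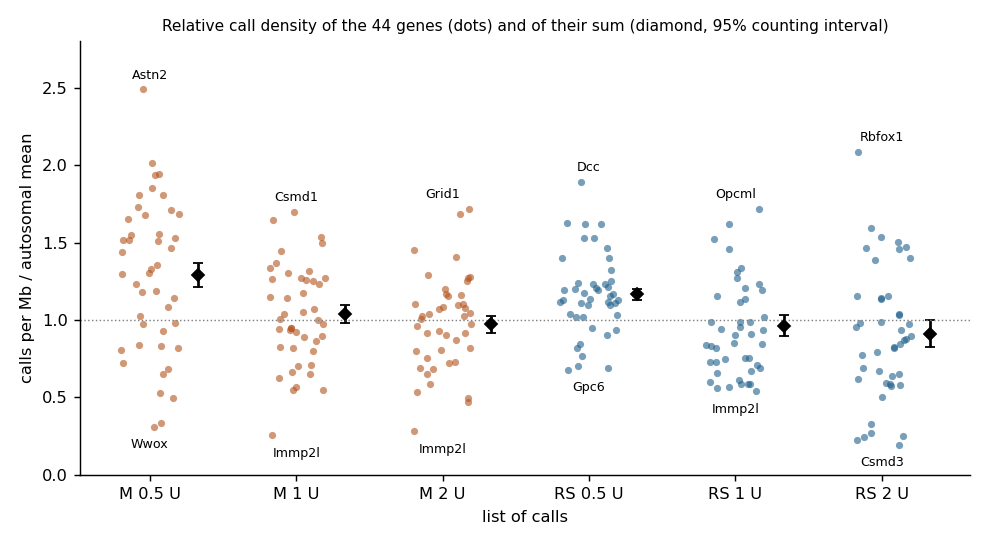
Relative call density of each of the 44 genes (dots, orange for M and blue for RS) in the 6 lists, with the value of their sum and its 95% counting interval (black diamond). Names mark the highest and lowest gene of a list; Astn2 reaches 2.49 in M at 0.5 U, and Immp2l is lowest in 3 lists.

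Scaffolds and catenins, which tie receptors to the cytoskeleton, were sparser, with 1.02, 0.886 and 0.698 in M against 1.00, 0.858 and 0.925 in RS over 4 genes. Dlg2, a postsynaptic scaffold (chromosome 7, 90476188 to 92449246), had 37, 40 and 37 calls in M, and in RS 162, 20 and 19. Magi2, another synaptic scaffold (chromosome 5, 19219387 to 20704792), had the highest stage ratio, 1.05 (0.46 to 1.63), with 1.14, 1.00 and 1.00 at the 3 amounts. It had 7, 17 and 16 calls in M against 78, 23 and 12 in RS. In M its relative density was 0.334, 0.550 and 0.470, each with an interval below 1, and in RS it was 0.768, 1.12 and 0.955. Ctnna3, an alpha-catenin (chromosome 10, 63430098 to 65003667), lay below the autosomal mean in 6 of 6 lists, with 16, 27 and 18 calls in M against 88, 15 and 3 in RS. Its relative Ctnna2, of neurons, had 28, 29 and 27 calls in M against 93, 15 and 14 in RS, and lay above the mean in 5 lists.

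Among genes tied to channels, Kcnip4, which binds A-type potassium channels (chromosome 5, 48389503 to 49525122), had 25, 13 and 14 calls in M against 126, 21 and 9 in RS. Its stage ratio was 0.70 (0.15 to 1.25), small at 0.5 U (0.07) and larger at 1 and 2 U (1.24 and 0.78). Fgf14, which binds sodium channels, had the lower relative density in RS at each amount, with 17, 12 and 13 calls in M against 49, 6 and 3 in RS. The 3 genes of this role, with Nkain2, gave 1.46, 0.884 and 0.945 in M, and in RS 1.33, 1.11 and 0.853. The glypicans Gpc5 and Gpc6, heparan sulphate proteoglycans that lie side by side, gave 0.968, 1.24 and 1.02 in M against 1.09, 1.36 and 0.760 in RS. Gpc5 had 22, 34 and 30 calls in M, and in RS 137, 29 and 10, and Gpc6 had 12, 30 and 28 in M against 49, 18 and 6 in RS. The neighbours differed at 0.5 U in RS, at 1.40 and 0.680.

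The 2 nuclear regulators were among the 6 members that were higher at 2 U than 0.5 U in both stages by per-gene ratio, against the order of the members' sum. Rbfox1, a splicing factor of neurons and muscle (chromosome 16, 5884793 to 7412480), had 14, 32 and 59 calls in M against 146, 14 and 27 in RS. Its relative density in M was 0.649, 1.01 and 1.69, higher with each amount of MNase, and in RS it was 1.40, 0.661 and 2.09, the highest of a member at 2 U. Auts2, a partner of Polycomb proteins in neurons (chromosome 5, 131437333 to 132543220), had 13, 13 and 28 calls in M against 83, 13 and 13 in RS, with a stage ratio of 0.42 (-0.13 to 0.98). Together they had 0.726, 0.822 and 1.44 in M against 1.27, 0.739 and 1.79 in RS. From 0.5 to 1 U they were thus lower in RS, as the members' sum was.

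The 8 genes grouped as enzyme, trafficking or fragile site genes had 1.03, 0.916 and 0.849 in M, and in RS 1.06, 0.847 and 0.886. They are the genes named above as active in many tissues, with Naaladl2 and Galntl6 added. Fhit, a dinucleoside hydrolase (chromosome 14, 9550092 to 11162061), had 27, 42 and 36 calls in M against 103, 34 and 21 in RS. Naaladl2, a peptidase-like protein (chromosome 3, 23798103 to 25144149), had 37, 42 and 34 calls in M, and in RS 149, 11 and 13, with a stage ratio of -0.51 (-0.97 to -0.04) that was furthest from 0 at 1 U (-1.31). Macrod2, which removes ADP-ribose from proteins (chromosome 2, 140395303 to 142392966), had 15, 26 and 33 calls in M against 139, 26 and 11 in RS, and a ratio of 0.45 (-0.03 to 0.94). Immp2l, a peptidase of the inner mitochondrial membrane (chromosome 12, 41024061 to 41955588), was the sparsest member. It had 9, 5 and 6 calls in M, and in RS 44, 7 and 2, lay below the mean in every list, and ranked 285 by calls among autosomal protein-coding genes. Exoc4, of the exocyst (chromosome 6, 33249090 to 33973979), had 10, 10 and 16 calls in M against 51, 6 and 2 in RS. Wwox, an oxidoreductase, had 4, 18 and 21 calls in M, and in RS 44, 9 and 8, while its relative density of 0.310 in M at 0.5 U was the lowest of a member in that list. Prkg1, a kinase driven by cyclic GMP, had 22, 26 and 22 calls in M against 98, 14 and 7 in RS, and its relative density was lower in RS at each amount. Galntl6, of a glycosyltransferase family, had 19, 19 and 24 calls in M, and in RS 88, 9 and 10. Sgcz had 8, 22 and 17 calls in M against 89, 12 and 6 in RS, and its ratio of 1.16 at 0.5 U was not repeated at 1 and 2 U (-0.28 and -0.04).

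The starts of the genes held calls at about the rate of the gene bodies. Within 1000 bp of the RefSeq starts of 31 members, 96.8 kb once overlapping stretches are joined, there were 16 calls in the 6 lists, where the body density of these genes gives 15.6, a ratio of 1.03 (0.587 to 1.67). Of 51 RefSeq start windows of 31 members, each 250 bases before to 50 after a start, 1 was touched by a call. It belongs to Immp2l, and the call, in RS at 0.5 U alone and at the weakest p-value of that list, covered only its first 2 bases. That window is shown because it is the one promoter the calls reach, with the covered bases in capitals (RefSeq, GRCm38.p6, chr12:41023840-41024139, plus strand), and 68.0% of its bases are G or C.
Immp2l: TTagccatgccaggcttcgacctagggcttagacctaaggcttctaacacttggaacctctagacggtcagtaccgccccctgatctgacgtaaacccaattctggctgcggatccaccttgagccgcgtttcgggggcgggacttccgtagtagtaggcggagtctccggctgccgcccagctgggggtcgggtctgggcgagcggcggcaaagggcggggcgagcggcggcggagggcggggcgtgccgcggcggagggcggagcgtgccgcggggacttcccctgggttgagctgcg
Within 1000 bp of a start, 10 of the 31 genes had a call in any list, with 3 such calls each in Robo2 and Fgf14.

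Over all members, 30, 22 and 23 lay above the autosomal mean in M and 35, 14 and 15 in RS. Of genes of at least 300 kb, 44.8%, 47.5% and 46.7% did so in M and 55.3%, 40.7% and 41.7% in RS, so the members' shares of 68.2% and 79.5% at 0.5 U stand above that background and those at 1 U in RS (31.8%) and 2 U in RS (34.1%) below it. That background includes the members and is mostly of shorter genes. The members were also picked for many calls, of which RS at 0.5 U supplies more than any other list, so their shares are given as description. Ctnna3 and Immp2l were the 2 members below the mean in every list, and Opcml the one above it in every list. Of the 489 other genes of at least 300 kb, 57 were above the mean in no list and 18 in every list. For the 73 other genes at least as long as the shortest member these counts were 2 and 3, so neither is particular to the members. Across the 44 genes, relative densities of 2 lists had Spearman coefficients from 0.002 to 0.535, the highest between M at 1 U and M at 2 U and next between M and RS at 0.5 U (0.516). The points share genes and autosomal means, and no p is attached. Total calls followed gene length (0.762), while relative density in M at 0.5 U was lower where neighbours were more frequent (-0.509); for RS at 2 U that coefficient was 0.166.

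Summed over the lists, calls were spread nearly evenly along the genes. With each body cut into 10 equal parts by coordinate, the 6 lists summed gave between 0.894 and 1.09 of the mean per part. RefSeq start windows gave the direction of transcription for 31 members, and there the first part had 0.914 (0.842 to 0.991) and the last 0.897 (0.826 to 0.973). Sequence more than 250 kb from both ends had a relative density of 1.12 (1.10 to 1.15) over the summed lists, and the outer 10 kb had 0.910 (0.754 to 1.09), which rests on 119 calls. RS at 0.5 U supplies 4566 of the 9332 calls and weighs most in such sums. Single lists ran wider, with 0.728 (0.574 to 0.911) in the first part by coordinate in M at 0.5 U, and in RS at 2 U with 0.658 (0.440 to 0.944) in the part numbered 3 and 1.43 (1.10 to 1.83) in that numbered 6. In windows of 100 kb the lists summed held a median of 16 calls, from 2 to 39. The longest stretches without a call in any list were found in Lsamp (97.1 kb) and Macrod2 (84.5 kb), with that of Immp2l between them. The fullest of 552 windows lay in Csmd1 (chromosome 8, 17392538 to 17492537), with 3, 9 and 9 calls in M, and in RS 14, 3 and 1. Of these windows, 30.6%, 23.7% and 22.8% were empty in M and 0.181%, 39.7% and 57.6% in RS.

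**Figure D4:**
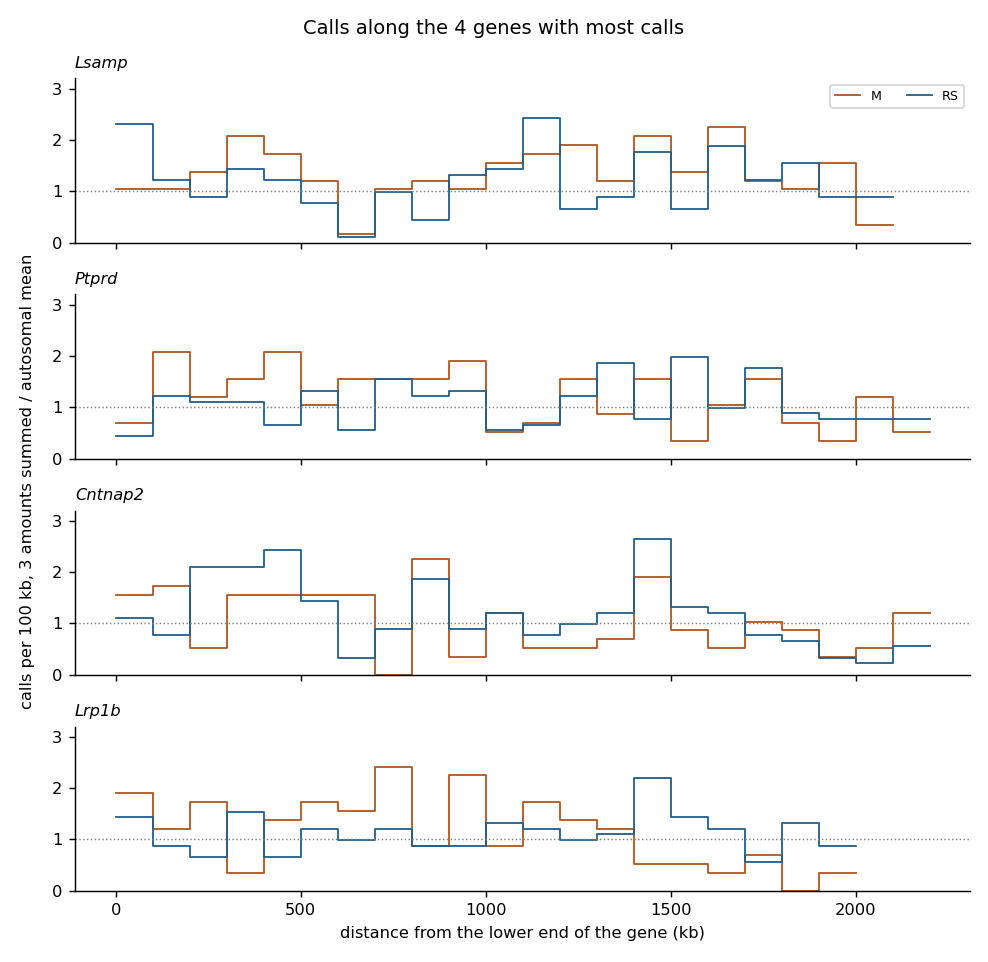
Calls per 100 kb window along Lsamp, Ptprd, Cntnap2 and Lrp1b, the 4 members with most calls, with 3 amounts summed and divided by the autosomal mean (dotted line at 1), M in orange and RS in blue; the x axis is the distance from the lower end of the gene. Windows scatter around 1 along the whole gene, and the emptiest, in Lsamp at 600 kb, holds 2 calls.

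Positions in the members were rarely found again. A call counted as shared when a midpoint of another list lay within 73 bp. In M, 3.93% (2.83 to 5.29), 4.60% (3.50 to 5.91) and 3.53% (2.58 to 4.69) of member calls were shared with any other list, and in RS 1.91% (1.53 to 2.35), 4.97% (3.54 to 6.75) and 5.44% (3.52 to 7.99). Autosomal calls outside the members and outside dense bins were shared in 9.37%, 9.05% and 8.56% of cases in M and 4.53%, 9.79% and 11.6% in RS. The share in members was the smaller one in 6 of 6 lists, and no interval of the members reached the other value. In other genes of at least 300 kb the shares were 5.45%, 4.38% and 4.89% in M against 2.74%, 5.76% and 6.79% in RS, above the members in each list but M at 1 U. Only in RS at 0.5 U did the intervals of members and other long genes stay apart. With midpoints within 20 bp those too overlapped, at 1.25% (0.947 to 1.61) and 1.52% (1.35 to 1.72).

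**Figure D5:**
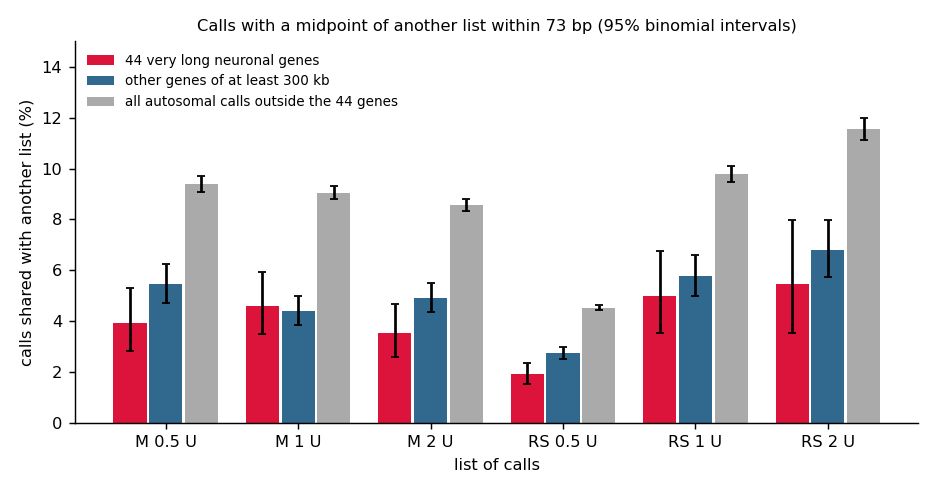
Percent of calls in each list that have a call midpoint of another list within 73 bp, for the 44 genes (red), other genes of at least 300 kb (blue) and all autosomal calls outside the 44 genes (grey), with 95% exact binomial intervals. The grey bars are highest in 6 of 6 lists; the red bars lie between 1.91% and 5.44%.

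Merging all member calls by midpoint gave 6487 positions, of which 6387 (98.5%) were found in 1 list, 99 in 2 lists and 1 in 5. That single position lies in Ctnna3 (chromosome 10, 64938017 to 64938203) and had 3 calls in each list of M and in RS at 0.5 and 1 U, with none in RS at 2 U. No position was called in 3 lists of a stage and in none of the other. Counts of this kind over other genes are not given here, so these describe the members without a background. Most member calls were weak, as were most others. The share at the largest p-value of a list, the weakest call it admits, was 75.8%, 76.9% and 78.2% in M, and in RS 75.2%, 80.0% and 81.6%, and for the other autosomal calls 73.5%, 76.4% and 75.4% (M) and 73.3%, 78.3% and 79.6% (RS). The members' share was above that of the other autosomal calls in each of the 6 lists, with intervals that excluded the other value in M at 2 U and RS at 0.5 U. Other genes of at least 300 kb had 75.2%, 78.5% and 76.9% (M) and 74.5%, 79.6% and 83.1% (RS), above the members in M at 1 U and RS at 2 U.

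A list of 129 other neuronal genes of the same kinds, 117 of them at least 300 kb long, gave a like pattern at 0.5 U. Its relative densities were 1.21, 1.13 and 1.10 in M against 1.16, 1.06 and 0.871 in RS, with log2 ratios of 2 U over 0.5 U of -0.14 in M and -0.41 in RS. Of the 129, 26 were higher in M at 3 of 3 amounts and 11 higher in RS, and 50 were lower at 2 U in both stages. The same shares were 14.8%, 15.0% and 31.7% over genes of at least 300 kb, and 20.5%, 9.09% and 63.6% over the members. Lower density at 2 U in both stages was thus less frequent in this list than in the members, which were picked for many calls. Dpp10, a partner of potassium channels, had the most calls with 36, 35 and 36 in M, and in RS 152, 19 and 2. Pcdh15, a protocadherin of hair cells, had 29, 41 and 33 in M against 139, 21 and 9 in RS.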

How the data were processed

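Both samples of a group were pooled by the authors into 1 list of calls, per the design text of the series, and each list gives a deposited p-value per 140 bp call. STAR 2.5.2a and the build GRCm38/mm10 are listed, with no role, per the submitters' processing notes. The nucleosome caller, its threshold and the read depths were not given in the sources used here. Midpoints (start + 70) were counted in RefSeq gene bodies (GRCm38.p6), and 260 dense bins, 234 of them on autosomes, were left out of counts and lengths. Sums have exact Poisson intervals, ratios exact conditional binomial ones, means of log2 ratios normal ones from counts, and shares exact binomial (Clopper-Pearson) ones, all at 95%. Neighbouring calls overlap, so these are too narrow. No tests were run. Steps were tested on simulated data, in Python 3.11.15 with numpy 2.4.6, pandas 2.3.3 and SciPy 1.17.1. The members, roles and lists were chosen with earlier results of these data known. Named genes were the 10 members with most calls, the 4 with the highest and the lowest mean relative density, and the 5 with the largest and smallest stage ratio. All other members are given by their calls, and the other neuronal list was named by its 3 genes with most calls, of which 1 is not reported here. Alternatives kept dense bins, merged calls, used stronger calls, medians or gene interiors, or changed the reference; their effect closes the text. Sequence was read from RefSeq start windows alone, and the base composition of calls was not analysed.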

Additional observations from a re-analysis of the deposited data

Results flagged for a closer look

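In 5 members both higher amounts of MNase moved relative density one way in M and the other way in RS, compared with 0.5 U, as did 19.1% of the 533 genes of at least 300 kb, so that 5 of 44 is not above that background. This difference between the stages was not tested, and each value rests on few calls. The log2 ratio of 2 U over 0.5 U in M exceeded that in RS by 1.36 for Grid1, 1.19 for Sgcz, 1.05 for Macrod2 and 0.53 for Nkain2, all higher with more MNase in M and lower in RS. For Opcml the difference was -0.93, lower with more MNase in M and higher in RS. Sgcz had 8, 22 and 17 calls in M against 89, 12 and 6 in RS, and Nkain2, a regulator of the sodium pump, had 21, 31 and 39 (M) and 102, 20 and 10 (RS).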

How the results depend on the processing

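Of 138 values recomputed under an alternative, 109 stayed within the counting interval of the main value or, for counts, within 1.5 times, and 29 did not. Of all 138, 8 lay on the other side of 1 (ratios) or 0 (log2 ratios), and for 1 of these the interval of the main value had not included 1. Keeping dense bins gave relative densities of 1.11, 0.913 and 0.857 in M against 1.09, 0.817 and 0.742 in RS, a stage ratio at 0.5 U of -0.029, a log2 ratio of 2 U over 0.5 U in RS of -0.55, and 12 members above the mean in M at 2 U and 9 in RS at 2 U. Calls below the largest p-value gave 1.18 (0.5 U) and 0.863 (2 U) in M, against 1.08, 0.888 and 0.820 in RS, with 14 members above the mean in M at 2 U and 22 in RS at 0.5 U. The median over members was 0.876 in RS at 1 U. At equal MNase per cell the stage ratio was -0.42 and -0.19. Against genes of at least 500 kb the ratio at 0.5 U was 1.14 in M and 1.04 in RS. With flanks of 500 kb, bodies over flanks in M at 1 U changed from 0.904 to 1.00, just above 1, and became 1.05 in RS and 1.03 in M at 0.5 U, where it had been just below 1. Midpoints within 20 bp gave shares of 2.11%, 2.66% and 2.35% in M, then 1.25% (0.5 U) and 2.88% (1 U) in RS. The causes were not tested. Merged calls, gene interiors over 100 kb from both ends, leaving out Lsamp, and the mean of the own chromosome (added after the data were seen) kept the values they were run on within their counting intervals, as did leaving out an amount. Within those intervals the sign still turned for the density in M at 2 U, 1.00 with merged calls and 1.01 as a median, for the ratio to genes of at least 500 kb in RS at 2 U (1.00), and for the stage ratio at 2 U relative to other genes of at least 300 kb (0.01). Merged and stronger calls for the counts of members were also added later. No paired analysis was possible because each list pools both replicates, and no replicate could be left out. In RS at 2 U a member had a median of 10 calls, which limits statements on single genes.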
